A study of Mus musculus with 6 samples.

Results

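The tumour biopsy was compared with 2 papilloma biopsies across 16353 gene models that held enough counts to test, out of 23726 in the deposited table. A difference was kept only where the tumour lay above both papillomas or below both. The 3 lesion libraries are part of 6 mouse libraries, the others being 1 biopsy of healthy skin and 2 cultures of cells from a tumour. Both papillomas and the tumour were raised by DMBA, a hydrocarbon that mutates DNA, and TPA, which stimulates keratinocytes through protein kinase C. The skin biopsy is labelled as healthy, and the cultured cells, mSCC-20 (labelled non-tumorigenic) and mSCC-38 (labelled highly tumorigenic), came from DMBA/TPA tumours as well. The labels name the papillomas as distinct. The labels give no strain, age, genotype, dose, treatment time, histology of the tumour or mouse of origin, so the lesion is called a tumour throughout. The p-values thus reflect the spread of these samples alone, part of which may be technical.

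In stratified epidermis, basal cells attach to a laminin-rich basement membrane through integrins and divide, while suprabasal cells stop dividing, make Krt1 and Krt10, and build the cornified envelope that forms the skin barrier. Papillomas are benign outgrowths that keep this layered order, and in the DMBA/TPA model they can progress to squamous cell carcinoma. Keratins of single-layered epithelia, such as Krt8 and Krt18, are absent from most normal interfollicular epidermis.

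Total counts were 25140489 in papilloma 1, 29982455 in papilloma 2 and 42992597 in the tumour, and 41462120 in skin. Levels are given as CPM, counts per 1000000 counts after scaling by trimmed means (TMM), so they compare libraries for 1 gene and not genes with each other, and folds to the nearer papilloma are ratios of CPM. Where no read was counted, a true level of up to 3 counts remains possible, equal to 0.141 CPM in papilloma 1, 0.106 in papilloma 2 and 0.0709 in the tumour. All 3 lesions held high levels of the basal keratinocyte genes: Krt14 stood at 24619.9, 17727 and 13542 CPM in papilloma 1, papilloma 2 and the tumour, and Trp63, the master transcription factor gene of stratified epithelium, at 379, 442 and 531 CPM. Neither passed the test. RNA integrity, per the labels, was 8.4, 8.2 and 9.1 in the same order, so the tumour had the most intact RNA of the 3; whether that moved any value below was not tested.

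Of the tested gene models, 7103 lay above both papillomas in the tumour, 6966 below both and 2284 between them. A gene is called here where edgeR's quasi-likelihood test gave a Benjamini-Hochberg adjusted p under 0.05 and the tumour lay outside both papillomas. By this rule 1954 genes (11.9%) were higher in the tumour and 1733 (10.6%) lower. The spread in this test comes from the papillomas alone, with 1 residual degree of freedom, and the single tumour library is taken to vary as they do. An exact permutation test of 1 library against 2 cannot go below p = 0.333. A rule of size that needs no test asked for a ratio of at least 4-fold to the nearer papilloma after adding 0.5 CPM. It also asked for at least 10 CPM, in the tumour for higher genes and in the lower papilloma for lower genes. This rule placed 225 genes (1.38%) above both papillomas and 385 (2.35%) below both. The genes nearest that threshold were Pmaip1 inside it (log2 ratio 2.01) and Tmem71 outside it (1.995) among the higher genes, and Ckmt1 inside it (-2.005) and Ampd3 outside it (-1.998) among the lower. The same size between the papillomas themselves was reached by 108 genes that were higher in papilloma 2 and 9 that were higher in papilloma 1. Scaling by total counts alone moved the median log2 ratio of genes with at least 10 CPM from 0.01 to 0.15.

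**Figure D1:**
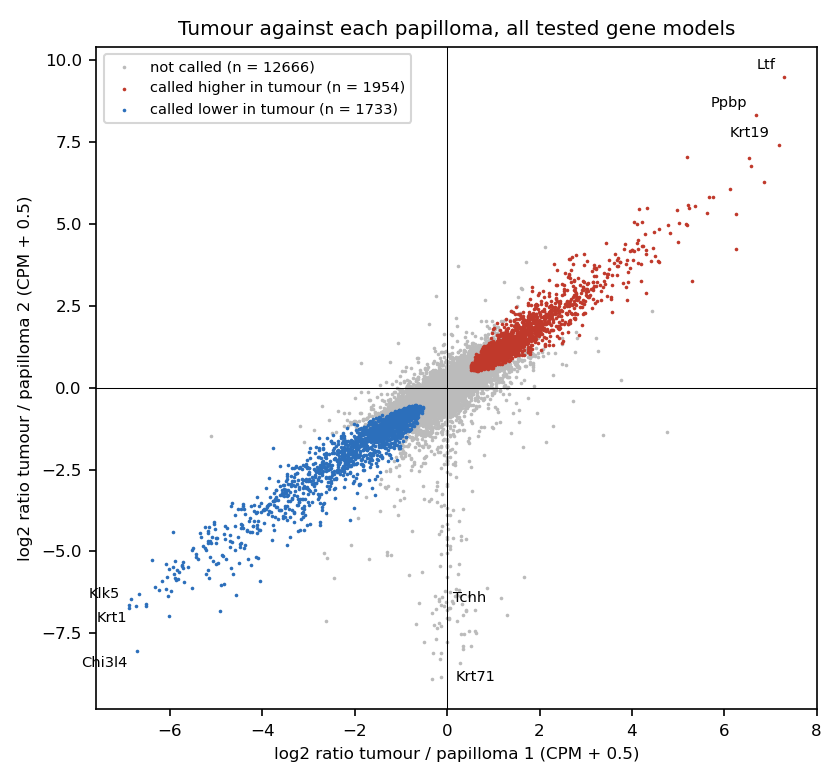
Each point is 1 tested gene model, with the log2 ratio of the tumour to papilloma 1 on the x axis and to papilloma 2 on the y axis (0.5 CPM added to each level). The 1954 genes called higher lie in the upper right and the 1733 called lower in the lower left, while hair genes such as Tchh and Krt71 form a column near x = 0 because only papilloma 2 held them at high levels.

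Terminal differentiation genes were among those furthest below both papillomas. Of 23 tested genes of epidermal differentiation, 18 were lower in the tumour and 1 was higher, with a median log2 ratio to the papilloma mean of -4.67, beside -0.01 over all genes tested. Krt10, the suprabasal type I keratin gene (chromosome 11, 99246569 to 99250678, mm9, as for all gene positions), was at 10822 CPM in papilloma 1, 8327 in papilloma 2 and 94.2 in the tumour, with 4632 in skin. Both papillomas lay above skin, and the tumour lay far below skin. Against the papillomas the log2 fold change was -6.67 ± 0.57 SE (edgeR adjusted p = 0.00448). Its partner Krt1 (chromosome 15, 101675857 to 101681217) was at 10264 and 9758 CPM in papilloma 1 and papilloma 2 and at 96.4 CPM in the tumour, 101-fold below the nearer papilloma (edgeR adjusted p = 0.00369). Hrnr, which encodes hornerin, a filaggrin-like protein of the cornified layer (chromosome 3, 93123671 to 93137494), was at 1145 and 964 CPM in the papillomas and 9.19 CPM in the tumour. In each of these 3 genes the papillomas lay close together and the tumour about as far below each of them. Because these are bulk biopsies, fewer differentiating cells and less RNA per differentiating cell cannot be told apart.

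The loss was not equal over the programme. Casp14, a protease gene of cornification, was at 1549.7, 1538 and 25.8 CPM in papilloma 1, papilloma 2 and the tumour, and Lor, encoding loricrin, at 2805, 1987 and 76.4 CPM. Ivl, encoding the envelope protein involucrin, was at 275, 243 and 155 CPM and did not pass (edgeR adjusted p = 0.0679), nor did the crosslinking enzyme gene Tgm1, at 846, 553 and 283 CPM (edgeR adjusted p = 0.0576). Involucrin and transglutaminase 1 act early in envelope assembly, loricrin and the filaggrin-like proteins late. The 1 member called higher, the calmodulin-like gene Calml3, was at 644, 509 and 1234 CPM, and it lost its call with DESeq2's size factors.

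The promoters of 3 lowered genes, Krt10, Hrnr and Klk5, and of 3 genes that were higher in the tumour, Mmp13, Krt7 and Ltf, are shown because the comparison turns on these genes. Each line gives the 100 bases before the transcription start, 5′ to 3′ on the gene's strand, from RefSeq on GRCm38.p6, a later build than the mm9 of the gene positions above. Capitals mark TATAAA, the TATA box letters, and TGANTCA, the AP-1 letters, each searched on both strands.
Krt10 (chr11:99389365-99389464, minus strand): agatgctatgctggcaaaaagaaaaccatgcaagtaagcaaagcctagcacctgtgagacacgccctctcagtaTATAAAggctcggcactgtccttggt
Hrnr (chr3:93319649-93319748, plus strand): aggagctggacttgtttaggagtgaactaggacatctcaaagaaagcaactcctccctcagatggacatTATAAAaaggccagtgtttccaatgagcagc
Klk5 (chr7:43842169-43842268, plus strand): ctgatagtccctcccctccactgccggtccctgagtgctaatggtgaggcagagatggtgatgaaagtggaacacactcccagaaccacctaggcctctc
Mmp13 (chr9:7272414-7272513, plus strand): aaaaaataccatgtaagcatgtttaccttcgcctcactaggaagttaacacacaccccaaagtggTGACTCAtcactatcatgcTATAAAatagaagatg
Krt7 (chr15:101412303-101412402, plus strand): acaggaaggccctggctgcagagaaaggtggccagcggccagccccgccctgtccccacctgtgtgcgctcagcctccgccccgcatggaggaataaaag
Ltf (chr9:111019192-111019291, plus strand): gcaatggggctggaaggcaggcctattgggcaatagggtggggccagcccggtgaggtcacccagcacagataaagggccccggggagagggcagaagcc
TATAAA began 26 bases before the start in Krt10, 31 in Hrnr and 16 in Mmp13, and TGACTCA began 35 bases before it in Mmp13. Neither set of letters was found in this window of Klk5, Krt7 or Ltf. Over all 32851 RefSeq promoters, 5.56% held TATAAA and 2.73% held TGANTCA in the same window. Only 69.6% of the tested genes had a promoter in the table, so the called genes were not compared with the rest. A match of letters is a description and does not show that a factor binds there.

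Many differentiation genes of the epidermis sit in gene clusters, and in both clusters described here most tested genes were called lower. The clusters and the gene families below were chosen after their values were seen. In the epidermal differentiation complex (chromosome 3, 91884193 to 93137494), 34 of 40 tested models were called lower and the median log2 ratio to the papilloma mean was -4.89. This window was bounded by the tested envelope genes themselves (Lce, Sprr, Lor, Ivl, Hrnr and the like). It leaves out S100a8, S100a9 and Tchh, which lie outside it on the same chromosome. All 18 tested Lce genes, which encode late cornified envelope proteins, were called lower, and their summed level was 5736 CPM in papilloma 1, 3616 in papilloma 2 and 160.4 in the tumour. Of 13 tested Sprr genes, which encode small proline-rich envelope proteins, 10 were called lower, and their summed level was 22103, 14122 and 6247 CPM. Sprr1b, Sprr2d and Sprr2f lost their calls with a gene length offset. Sprr1b and Sprr2f lost them with DESeq2's size factors as well, and Sprr1b also without skin. The counts for the complex and its families come from the main fit alone. Crnn, Ivl, Prr9, Sprr1a, Sprr2k and Sprr3 did not pass. Sprr3 was at 1105 CPM in papilloma 1, 218 in papilloma 2 and 845 in the tumour, so the tumour lay between the papillomas. Sprr2b, in contrast, was at 211 and 284 CPM in the papillomas and 7.14 CPM in the tumour, 29.6-fold below the nearer one. Copies within the Lce1 and Sprr2 groups are near-identical, so the level of each single copy is uncertain.

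**Figure D2:**
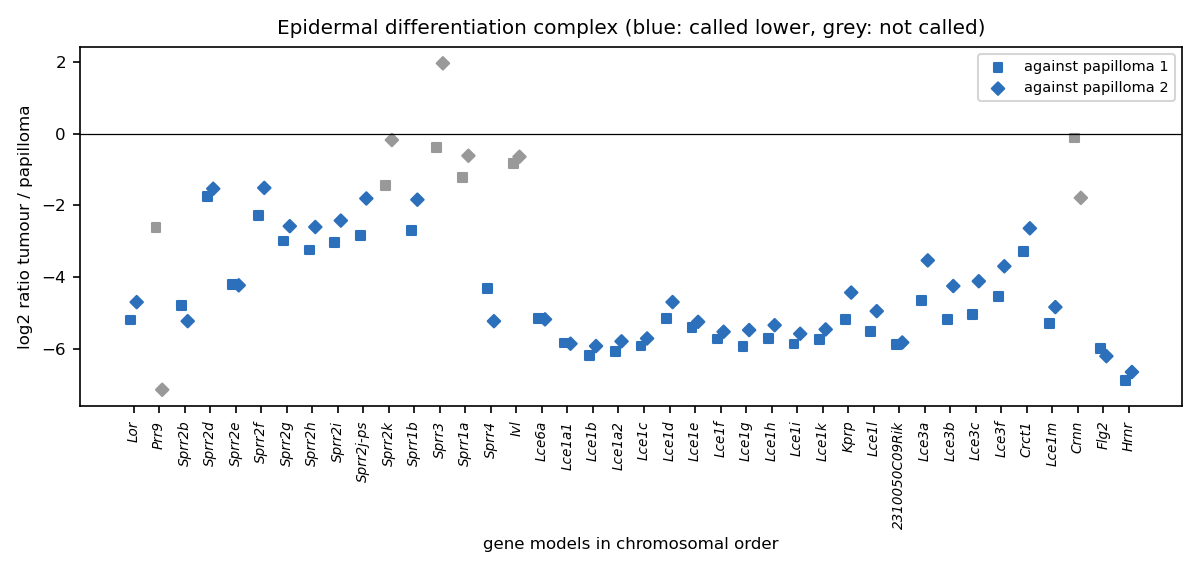
The 40 tested gene models of the epidermal differentiation complex stand in chromosomal order on the x axis, with the log2 ratio of the tumour to papilloma 1 (squares) and to papilloma 2 (diamonds) on the y axis. The Lce genes in the middle lie near or below -4 against both papillomas, apart from Lce3a and Lce3f against papilloma 2, the Sprr genes spread from about 2 to below -5, and the 6 grey models did not pass the test.

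Kallikreins are serine proteases that cut corneodesmosomes so that surface cells shed. In the kallikrein cluster (chromosome 7, 50945788 to 51484987), 11 of 13 tested genes were called lower and Klk1 and Klk15 did not pass, Klk1 standing at 0.422, 0.283 and 0.614 CPM, above both papillomas. Klk5, which activates other kallikreins (chromosome 7, 51097639 to 51106551), was at 268 and 241 CPM in papilloma 1 and papilloma 2 and 1.77 CPM in the tumour (log2 fold change -7.16 ± 0.28 SE, edgeR adjusted p = 0.00205). It had the largest ratio to the nearer papilloma, 136-fold, of the called lower genes with at least 10 CPM. Klk7 was at 2269, 2877 and 92.9 CPM, and the summed level of the 13 genes was 18210.3, 15322 and 1645 CPM.

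Some families of lipid and gap junction genes, picked after their values were seen, were called lower too. All 6 tested Elovl genes, which encode fatty acid elongases, were called lower, among them Elovl4, which makes the very long chains of barrier ceramides, at 1707 and 1396 CPM in the papillomas and 127 CPM in the tumour. Pla2g2f, a secreted phospholipase gene, was at 196, 216 and 1.65 CPM in papilloma 1, papilloma 2 and the tumour, and Them5, a thioesterase family gene, at 335, 350.4 and 3.14 CPM. Both were over 100 times lower in the tumour than in either papilloma. All 6 tested Gjb genes, which encode connexins of gap junctions, were called lower, the most abundant being Gjb2 at 5354, 4305 and 1309 CPM.

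Among 22 epithelial junction and identity genes, 5 were called lower and 3 higher, beside 10.6% and 11.9% of all genes tested. Under a gene length offset, DESeq2 and total-count scaling 3 to 7 were lower. Dsg1a, the desmoglein of the upper layers, was at 621 and 551 CPM in the papillomas and 27.6 CPM in the tumour. Dsg2, the desmoglein of basal cells and single-layered epithelia, was at 29.9 and 40.3 CPM in the papillomas and 119.9 CPM in the tumour, the opposite order. The claudin gene Cldn7 was at 0.937, 1.13 and 30.9 CPM, 27.4-fold above the nearer papilloma. Cdh1, encoding E-cadherin, was at 739.5, 695 and 781 CPM, and the desmoplakin gene Dsp at 7543, 6201 and 5311 CPM. Neither passed (edgeR adjusted p = 0.734 and 0.517). Ovol1, a transcription factor gene of differentiating epidermis, was at 483, 306 and 70.3 CPM and was called lower.

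The stress keratins, which injured and growing epidermis induces, did not share the deep deficit. Krt6a was at 23670.5, 14762 and 11421 CPM in papilloma 1, papilloma 2 and the tumour (edgeR adjusted p = 0.346), and Krt17 at 1885, 1904 and 1944 CPM (edgeR adjusted p = 0.934). Krt16 was at 12295, 7062 and 1918 CPM and was called lower (edgeR adjusted p = 0.0404), but not with DESeq2's size factors, without skin in the fit or with a gene length offset. Krt6a and Krt6b are near copies, so their split is uncertain. Of the 16 tested genes in this list, which also holds the Sprr genes and calprotectin, 11 were called lower, or 6 with a gene length offset.

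Of 12 basal keratinocyte genes 5 were called higher and 0 lower, with a median log2 ratio of 0.94 (3 to 9 under the gene length offset, DESeq2 and total-count scaling). Itga3, the laminin-binding integrin subunit, was at 315 and 297 CPM in the papillomas and 1079 CPM in the tumour (log2 fold change 1.82 ± 0.22 SE, edgeR adjusted p = 0.00843). Dst, whose epithelial form anchors keratin to hemidesmosomes, was at 85.9, 88.6 and 239 CPM. In both genes the papillomas lay close to each other and the tumour 2 to 4 times above them. The keratins of this layer, Krt14 and Krt5, did not pass, Krt5 standing at 7942, 6540.4 and 12119 CPM (edgeR adjusted p = 0.229). The summed level of the list was 37005, 28069.5 and 34976 CPM, so the tumour lay between the papillomas. The largest part of this sum was Krt14, at 24619.9, 17727 and 13542 CPM. Of the members without a call, 6 lay above both papillomas and 1 below both.

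Keratins of single-layered epithelia were among the genes with the largest excess in the tumour. Krt19 (chromosome 11, 100002126 to 100007233) was at 2.06 CPM in papilloma 1, 1.70 in papilloma 2 and 370.0 in the tumour, with 3.21 in skin (log2 fold change 7.62 ± 0.22 SE, edgeR adjusted p = 0.00205). Krt7 (chromosome 15, 101242834 to 101258237) was at 2.95, 1.98 and 319 CPM, 108-fold above the nearer papilloma. Krt8 was at 0.469, 0.600 and 34.4 CPM and its partner Krt18 at 5.25, 5.72 and 92.5 CPM. All 4 were called higher and were low in both papillomas and in skin, where Krt8 stood at 1.28 and Krt18 at 6.30 CPM. Krt20, of the intestinal lining, stayed at 0.328, 0.494 and 0.496 CPM. The mucosal keratin Krt13 was the most abundant of this list of 9, at 1062, 235 and 4616 CPM. Its tumour level lay above both papillomas, but the papillomas differed from each other by several times and the gene did not pass (edgeR adjusted p = 0.0735). Krt23 and Krt80 were called lower.

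**Figure D3:**
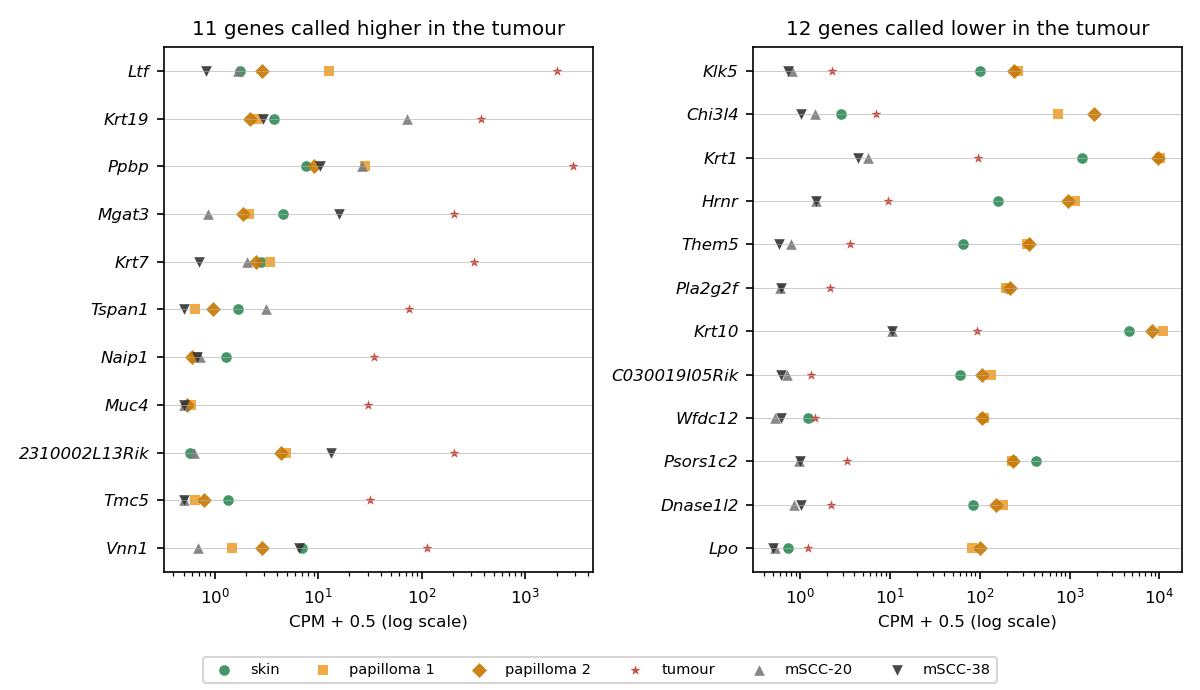
Levels of 11 called higher genes (left) and 12 called lower genes (right), from the 12 per direction with the largest ratio to the nearer papilloma, with CPM + 0.5 on a log x axis and 1 symbol per library. In the left panel the tumour stars stand to the right of both papillomas and of skin for every gene plotted. In the right panel the tumour stars stand far left of the papilloma symbols.

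Genes of glandular and mucin-producing epithelia were higher in the tumour in 10 of 23 tested cases and lower in 4, and their summed level was 461, 399 and 2442 CPM in papilloma 1, papilloma 2 and the tumour. Without Ltf the sum was 449, 397 and 428 CPM, so the tumour then lay between the papillomas. Ltf, which encodes the iron-binding antimicrobial protein lactoferrin of secretions and neutrophil granules (chromosome 9, 110921796 to 110945270), was at 12.3 CPM in papilloma 1, 2.33 in papilloma 2 and 2014 in the tumour. The papillomas differed, so the log2 ratio was 7.30 against papilloma 1 and 9.47 against papilloma 2 (edgeR adjusted p = 0.0101). Muc4, a membrane mucin gene, had 2 counts in papilloma 1, 1 in papilloma 2 and 1258 in the tumour, a depth-corrected ratio of counts of 492 (95% exact interval 168 to 2389, counting error only). Muc20 was at 0.187, 0.106 and 18.4 CPM and Muc1 at 0.515, 0.777 and 15.4 CPM. The milk protein genes Csn3 and Csn1s1 were called too but lost the call with DESeq2. Members that were called lower included Wfdc12, a protease inhibitor gene, at 112, 107 and 0.993 CPM, and the mucin gene Muc15, at 22.9, 20.8 and 4.80 CPM. Mucin genes thus stood on both sides.

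The other genes with the largest excess were of mixed function. Ppbp, a chemokine gene known from platelets (chromosome 5, 91197544 to 91199086), was at 27.6 CPM in papilloma 1, 8.65 in papilloma 2 and 2899 in the tumour, with log2 ratios of 6.69 and 8.31 to papilloma 1 and papilloma 2. The neighbouring platelet gene Pf4, picked after its values were seen, was at 15.3, 21.8 and 6.85 CPM and was called lower, and the platelet receptor gene Gp9 had at most 0.0473 CPM in any of the 3 lesions. Mgat3, an enzyme gene of N-glycan branching, was at 1.64, 1.38 and 204 CPM, and Tspan1, a tetraspanin gene, at 0.141, 0.459 and 74.04 CPM. Naip1, an inflammasome sensor gene, had 3 counts in each papilloma and 33.9 CPM in the tumour. Naip copies are near-identical, so its value is uncertain. Vnn1, a pantetheinase gene, stood at 0.984, 2.37 and 112 CPM, Tmc5 at 0.141, 0.283 and 31.1 CPM and 2310002L13Rik at 4.40, 3.89 and 202 CPM.

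On the lower side, Chi3l4, a chitinase-like gene of type 2 inflammation (chromosome 3, 106004409 to 106022397), was at 745 CPM in papilloma 1, 1849 in papilloma 2 and 6.59 in the tumour, 113-fold below the nearer papilloma. It has near copies, so the value is uncertain. The related gene Chi3l3, picked after its values were seen, lay above both papillomas at 3.37, 8.65 and 13.6 CPM and did not pass. Lpo, encoding lactoperoxidase, was at 81.1, 101 and 0.733 CPM, and the psoriasis locus gene Psors1c2 at 226, 235 and 2.84 CPM. Dnase1l2, a nuclease gene that degrades DNA in cornifying cells, stood at 181, 152 and 1.75 CPM, and C030019I05Rik at 135, 105 and 0.827 CPM. For each of these 4 genes the papillomas lay within 1.3 times of each other.

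None of the 21 tested replication and mitosis genes was called by edgeR in either direction, while 1 was higher and 5 lower at an unadjusted p under 0.05, and DESeq2 called 1 lower. Mki67, the proliferation marker, was at 222, 241 and 265 CPM and Top2a at 326, 278 and 347 CPM. Of 15 genes of G1 cyclins and cell cycle inhibitors, in contrast, 5 were called higher and 3 lower. Cdkn2a, which encodes the tumour suppressors p16 and p19, was at 13.96 and 11.8 CPM in the papillomas and 96.1 CPM in the tumour (log2 fold change 2.90 ± 0.17 SE, edgeR adjusted p = 0.00227), and its neighbour Cdkn2b at 18.6, 19.1 and 92.2 CPM. The D cyclin genes Ccnd1 and Ccnd2, which start G1, stood at 481, 506 and 1413 CPM and at 71.6, 115 and 452 CPM. Ccnd3 did not pass, at 39.8, 40.1 and 49.6 CPM. The inhibitor gene Cdkn2c was called lower, at 26.9, 31.2 and 11.2 CPM. Among the genes that encode INK4 inhibitors, Cdkn2a and Cdkn2b were thus higher and Cdkn2c lower. Of the D cyclin genes, whose kinases these inhibitors restrain, Ccnd1 and Ccnd2 were higher and Ccnd3 did not pass.

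Of 20 output genes of the Ras MAPK pathway, which DMBA is known to activate through Ras mutation, 7 were called higher. Dusp4, which encodes a nuclear phosphatase of ERK, was at 9.79 and 8.30 CPM in the papillomas and 93.02 CPM in the tumour (9.50-fold above the nearer one, edgeR adjusted p = 0.00219). Hmga2, a chromatin gene of embryonic growth, was at 46.8, 39.4 and 171 CPM and Spred2 at 12.2, 13.4 and 34.7 CPM. Dusp6 was the most abundant member at 176, 307 and 763 CPM, and it lost its call under total-count scaling and under DESeq2's size factors. The Ras genes Hras1 and Nras did not pass, Hras1 standing at 203, 189 and 182 CPM. Of 13 EGF family genes 1 was called higher and 1 lower, beside 11.9% and 10.6% of all genes tested. Nrg1 was the higher one, at 25.6, 16.4 and 96.5 CPM, and Nrg4 the lower, at 2.67, 3.46 and 0.496 CPM. Without a call, 3 more lay above both papillomas and 8 below both. DESeq2 called 1 higher and 3 lower, and 1 was higher and 5 lower at an unadjusted edgeR p under 0.05. The receptor gene Egfr was at 140.4, 165 and 177 CPM and did not pass.

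Of 15 p53 target genes 4 were called higher, Pmaip1, Mdm2, Tnfrsf10b and Ccng1. Pmaip1, a cell death gene, was at 47.4, 47.01 and 192 CPM, and Mdm2, which encodes the p53 ubiquitin ligase, at 83.3, 78.2 and 166 CPM. The p21 gene Cdkn1a, a p53 target that is counted above with the cell cycle inhibitors and not among these 15, was called lower at 439, 375 and 195 CPM, a call that was lost with DESeq2's size factors and with the gene length offset. Perp, a p53 target of desmosomes, was the most abundant at 9087, 6652 and 3229 CPM and did not pass (edgeR adjusted p = 0.0942). Among oncofetal genes, Lin28b, a blocker of let-7 microRNA maturation, was at 0.703, 0.918 and 23.2 CPM, 25.3-fold above the nearer papilloma, and Igf2 at 4.40, 2.83 and 44.2 CPM. H19, the imprinted neighbour of Igf2, was at 47.9, 35.3 and 23.7 CPM and did not pass (edgeR adjusted p = 0.0679).

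Signalling and stem cell genes held calls on both sides. Of 16 Wnt genes 5 were higher and 4 lower (2 to 4 lower under the alternatives). Wnt3, a canonical ligand gene, was at 18.1 and 20.5 CPM in the papillomas and 0.213 CPM in the tumour, 85.3-fold below the nearer papilloma (edgeR adjusted p = 0.00205). Lgr6, a stem cell receptor of the hair follicle and epidermis, was at 2.81, 4.94 and 77.99 CPM, while the related Lgr5 was at 5.34, 17.7 and 3.71 CPM and did not pass. Wnt7b was called higher at 28.2, 29.9 and 77.8 CPM. The follicle stem cell factors Sox9 and Sox2 were called higher, Sox9 at 50.7, 90.6 and 287 CPM and Sox2 at 2.01, 0.565 and 16.99 CPM. Their papillomas differed: the log2 ratio of Sox2 was 2.80 against papilloma 1 and 4.04 against papilloma 2. Tbx1, another follicle stem cell factor, was called lower, at 20.6, 22.9 and 4.25 CPM.

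In the TGF-beta and activin list 6 of 18 genes were higher and 2 lower, beside 11.9% and 10.6% of all genes tested. Tgfb1 was at 45.6, 41.04 and 101 CPM and its receptor gene Tgfbr1 at 46.6, 59.3 and 121 CPM, whereas the co-receptor gene Tgfbr3 was lower at 42.3, 42.6 and 15.1 CPM. Fst, which encodes the activin antagonist follistatin, was at 381, 288 and 891 CPM. Of 13 Notch genes, the ligand gene Jag1 and the target gene Hes1 were called higher, Jag1 at 206, 259 and 549.7 CPM. The Notch count was near the share of all genes, and the lower Hox count that follows was below it. Of 28 tested Hox genes, which record body position, 6 were higher and 2 lower (3 to 7 higher under the alternatives), the steadiest being Hoxb4, at 6.42, 7.74 and 17.5 CPM, and Hoxb7, at 10.8, 11.9 and 24.4 CPM. Hoxc10 had 0 counts in the tumour and was at least 7.93-fold lower than in papilloma 1 and at least 25.9-fold lower than in papilloma 2, with 3 counts as the floor of the tumour library, a call that was lost under total-count scaling and under DESeq2's size factors.

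Genes of mesenchymal transition and matrix remodelling were higher in part. Of 14 EMT and mesenchymal genes, 7 were called higher. Snai2, the transcription factor gene Slug, was at 53.5 and 61.7 CPM in the papillomas and 214 CPM in the tumour (log2 fold change 1.90 ± 0.18 SE, edgeR adjusted p = 0.00534). Twist1 was at 16.5, 14.2 and 33.1 CPM, and the matrix gene Fn1 at 272, 283 and 867 CPM. Snai1, Zeb1 and Cdh2 did not pass, Cdh2 standing at 1.22, 0.954 and 1.13 CPM, and Vim, the most abundant, was at 526, 417 and 784 CPM (edgeR adjusted p = 0.109). Of 17 matrix protease and inhibitor genes, 4 were called higher. The collagenase gene Mmp13, whose promoter is printed above, was at 223, 128 and 1140.0 CPM (5.11-fold above the nearer papilloma, edgeR adjusted p = 0.0114). Mmp12, a macrophage elastase gene, was at 12.04, 9.01 and 74.9 CPM and the membrane protease gene Mmp14 at 128, 109 and 316 CPM. Mmp9 lay between the papillomas, at 232, 121 and 126 CPM.

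Fibroblast genes did not move as a block. Of 20 tested, 4 were called higher and 2 lower (3 to 7 higher under the alternatives), beside 11.9% and 10.6% of all genes tested. The summed level was 8999, 7337 and 9640.3 CPM. Acta2, encoding the smooth muscle actin of contractile fibroblasts, was at 177, 169 and 398 CPM, and the microfibril gene Fbn1 at 128, 121 and 274 CPM. The small proteoglycan gene Lum was at 129, 119 and 28.1 CPM and Dcn at 212, 269.8 and 83.03 CPM, both called lower. The main collagen gene Col1a2 lay between the papillomas at 1733, 1379 and 1642 CPM. Among 12 endothelial genes the receptor gene Tek was the single call, lower at 19.4, 16.5 and 7.37 CPM. That count was no more than the share of all genes. The endothelial cadherin gene Cdh5 stood at 51.6, 43.1 and 53.1 CPM.

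Of 15 macrophage and monocyte genes 10 were called higher and 1 lower, and the summed level was 1346, 1038 and 6638 CPM in papilloma 1, papilloma 2 and the tumour, most of it Arg1. Arg1, an arginine-degrading enzyme gene of macrophages and of keratinocytes, was at 953, 566 and 5850.5 CPM (log2 fold change 2.95 ± 0.40 SE, edgeR adjusted p = 0.0114). Itgam, the CD11b integrin gene of myeloid cells, was at 15.7, 16.2 and 80.7 CPM and the complement gene C1qb at 23.3, 23.3 and 61.3 CPM. Cd68 and Csf1r, which define the lineage, did not pass, Cd68 standing at 27.8, 28.1 and 28.03 CPM. The scavenger receptor gene Cd163 was called lower at 16.96, 31.05 and 3.73 CPM. Macrophage genes thus differed in direction, and their part in other results was not tested.

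Of 21 inflammatory cytokine genes 9 were called higher and 1 lower, with a median log2 ratio of 0.92. The neutrophil chemokine genes Cxcl3 and Cxcl5 were at 12.8, 8.80 and 191 CPM and at 7.36, 6.04 and 102 CPM. Csf2, encoding GM-CSF, was at 0.234, 0.0706 and 4.37 CPM and Csf3, encoding G-CSF, at 2.81, 1.87 and 18.5 CPM. In all 4 genes the tumour stood more than 6 times above the nearer papilloma. Il33, an alarmin gene of epithelium, was the member called lower, at 617, 294 and 102 CPM, and kept its call in neither DESeq2, DESeq2's size factors, total-count scaling nor the gene length offset. Il6 and Tnf did not pass.

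Neutrophil genes stood on both sides, with 4 of 10 higher and 2 lower, and a summed level of 2857, 3827 and 3127 CPM. Ltf, counted in the glandular list too, is 1 of the 4, and without it the sum was 2845, 3825 and 1113 CPM, below both papillomas. The receptor gene Csf3r was at 6.23, 4.87 and 34.2 CPM, whereas Cxcr2, the receptor of the chemokines above, was at 34.3, 40.7 and 25.5 CPM and did not pass. The calprotectin genes S100a8 and S100a9, made by neutrophils and by stressed keratinocytes, made up most of the sum without Ltf, which thus mainly gives their level. S100a8 was called lower at 1195, 1775 and 256 CPM. S100a9 was called lower too, at 1607, 2003 and 775 CPM. Its call was lost with DESeq2's size factors, total-count scaling, the gene length offset and without skin. The granule genes Camp and Mpo stayed under 0.4 CPM in all 3 lesions, and Elane had 1 count in all.

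Of 18 tested interferon response genes, 8 were called higher and 14 had an unadjusted p under 0.05 in that direction. Cxcl9, a T cell chemokine gene that interferon gamma induces, was at 3.33 and 5.16 CPM in the papillomas and 123 CPM in the tumour (log2 fold change 4.85 ± 0.27 SE, edgeR adjusted p = 0.00227). Irf7, a transcription factor gene that type I interferon induces, was at 8.76, 11.8 and 169 CPM. Ifit1, Ifit3, Mx1 and Isg15, also known as targets of type I interferon, did not pass, Isg15 standing at 3.19, 3.28 and 7.26 CPM (edgeR adjusted p = 0.0527). Of 11 tested guanylate-binding protein genes, GTPases that interferon gamma induces, 10 were called higher, in clusters on chromosome 3 (5 of 5) and chromosome 5 (5 of 6). Gbp2 was at 19.02, 21.1 and 232 CPM, the highest of them. Gbp genes are near copies, so single values are uncertain.

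Lymphocyte genes stood at low levels in all 3 lesions. Of 15 T and NK cell genes 5 were called higher, and the summed level was 21.2, 15.5 and 49.8 CPM. The perforin gene Prf1 had 0 counts in papilloma 1, 1 in papilloma 2 and 121 in the tumour, a ratio of 142 (95% exact interval 25.01 to 5654). Gzmb was at 0.890, 0.883 and 6.14 CPM and Nkg7 at 0.328, 0.389 and 4.58 CPM. Healthy skin lay near the tumour in the summed level, at 44.3 CPM. Prf1 stood at 3.07 CPM in skin and 2.86 in the tumour, and Nkg7 at 4.67 CPM in skin. Gzmb, at 0.201 CPM, and Cd8a, at 0.321 CPM, were low in skin. The T cell receptor gene Cd3e, at 2.34, 1.45 and 3.69 CPM, and Cd4 did not pass. Igj, of antibody-secreting cells, was at 0.328, 0.212 and 12.4 CPM and was called higher, while the B cell gene Ms4a1 stayed under 0.4 CPM and Pax5 had 0 counts. MHC class II genes did not pass, Cd74 standing at 393, 320.5 and 633 CPM (edgeR adjusted p = 0.0737). The Langerhans cell gene Cd207 was called lower at 6.93, 5.30 and 0.236 CPM.

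Mast cell genes were lower in 4 of 10 cases, with a summed level of 105, 114 and 52.6 CPM. The protease genes Cpa3 and Mcpt4 were at 17.8, 18.1 and 4.09 CPM and at 16.8, 15.1 and 4.18 CPM. Kit, the receptor that defines the lineage but is shared with melanocytes, did not pass at 10.2, 21.02 and 8.79 CPM. Hemoglobin genes did not pass: of 6 erythrocyte genes edgeR called 0, DESeq2 called 0, and 0 had an unadjusted p under 0.05, with summed levels of 221, 165 and 243 CPM.

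**Figure D4:**
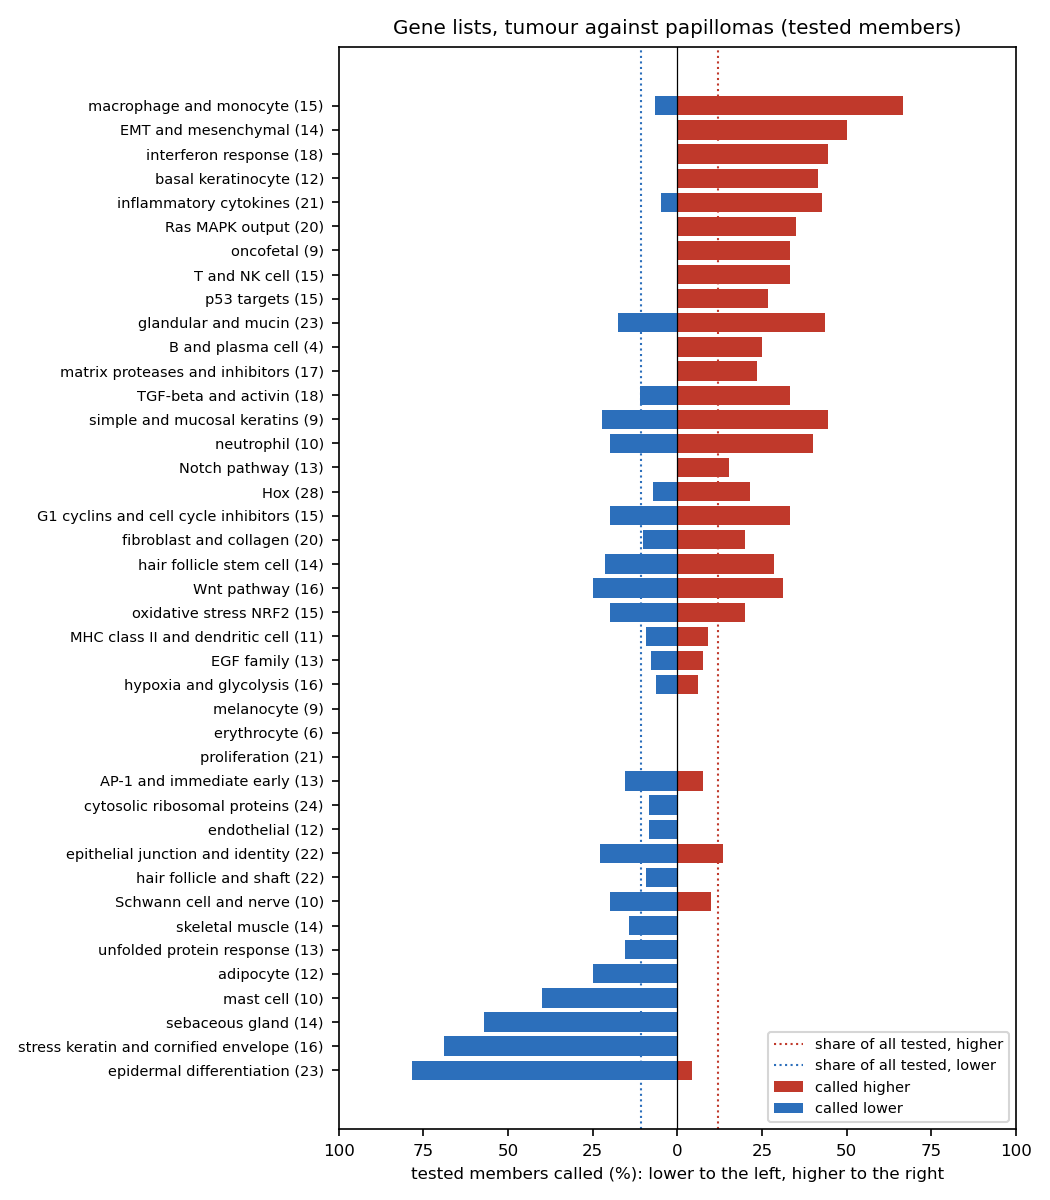
For each of the 41 gene lists, bars give the percentage of tested members called higher (to the right) and lower (to the left) in the tumour, with the number of tested members in brackets. Dotted lines mark the shares over all 16353 tested genes, 11.9% and 10.6%. The macrophage list reaches furthest right (10 of 15) and the epidermal differentiation list furthest left (18 of 23).

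Skin appendages and the tissue beneath the epidermis differed mostly downwards or not at all. Of 14 sebaceous gland genes, which make sebum lipids, 8 were called lower, and the summed level was 3217, 3104 and 1152 CPM. A large part of the fall in this sum was Elovl4, described above with the barrier lipids, at 1707, 1396 and 127 CPM. Elovl4 is among the 8 calls, as is Cidea, which the adipocyte list also holds. The wax synthase gene Awat1 was at 16.1, 16.2 and 1.68 CPM and the fatty acid reductase gene Far2 at 48.96, 40.5 and 2.84 CPM, while the widely expressed Fasn did not pass at 661, 610.1 and 506 CPM. In the skeletal muscle list 2 of 14 genes were called lower, beside 10.6% of all genes tested. The gene length offset gave 0 and DESeq2 gave 7. In the adipocyte list 3 of 12 were lower (1 to 4 under the alternatives), with Adipoq at 5.06, 12.9 and 8.13 CPM, between the papillomas.

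Hair and pigment genes show what the requirement to lie outside both papillomas leaves out. The summed level of 22 hair follicle and shaft genes was 182 CPM in papilloma 1, 6904 in papilloma 2 and 174 in the tumour. Papilloma 2 alone held these genes, so the median log2 ratio was -0.04 against papilloma 1 and -6.62 against papilloma 2. The 2 calls in this list, Dlx3 and Foxn1, are transcription factor genes that epidermis also uses, Dlx3 standing at 60.4, 110.0 and 3.90 CPM. Of 9 melanocyte genes edgeR called 0, with 2 lower at an unadjusted p under 0.05 and 1 called lower by DESeq2. Dct was at 4.31, 48.4 and 0.378 CPM.

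Metabolic and stress genes were called in both directions, beside 11.9% higher and 10.6% lower over all genes tested. The counts of the hypoxia, immediate early and ribosomal lists lay near or below those shares. The NRF2 list of antioxidant genes had 3 of 15 higher and 3 lower, with the cystine transporter gene Slc7a11 lower at 50.2, 65.7 and 16.4 CPM and Gclc, of glutathione synthesis, higher at 61.8, 73.1 and 132 CPM. Among 16 hypoxia and glycolysis genes the glycolytic enzyme gene Pgk1 was called higher at 36.5, 32.6 and 52.7 CPM, a call that was lost with DESeq2, with its size factors and without skin. The prolyl hydroxylase gene Egln3 was lower at 628, 533 and 134 CPM, and Slc2a1, the glucose transporter, did not pass at 633, 582 and 617 CPM. Of 13 immediate early genes Myc was higher at 88.4, 99.7 and 183 CPM and Egr2 and Egr3 were lower, Egr3 at 29.3, 38.6 and 11.5 CPM, while the Egr2 call was lost with DESeq2's size factors, total-count scaling, the gene length offset and without skin. Fos and Jun did not pass. The 24 cytosolic ribosomal protein genes had a median log2 ratio of -0.53 and 2 calls, both lower and both lost with the gene length offset.

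Gene length moved with the ratio. Split into 6 bins by length, the median log2 ratio to the papilloma mean rose from -0.22 in the shortest bin (60 to 1574 bases) to 0.23 in the longest (5394 to 104006 bases). The papillomas against each other (papilloma 2 over papilloma 1) gave -0.07 and 0.02 in the same bins. Called higher genes had a median length of 3159 bases and called lower genes 2553, beside 2732 over all tested. With a gene length offset, chosen after seeing the data, 1917 genes were called higher and 1297 lower, of which 1707 and 1283 were among the main calls.

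By chromosome, genes of chromosome 1 stood apart. Over 597 genes with at least 10 CPM the median log2 ratio was 0.53 against papilloma 1 and 0.56 against papilloma 2, while papilloma 2 over papilloma 1 gave -0.03. Of these genes 228 (38.2%) were called higher and 46 (7.71%) lower, beside 14.7% and 12.6% of all 9909 genes with at least 10 CPM. With the gene length offset the counts were 216 and 41 and the median log2 fold change was 0.60, beside 0.11 over all genes. Smaller shifts on the same side against both papillomas were seen for chromosome 13 (0.21 and 0.17), chromosome 10 (0.10 and 0.14), chromosome 7 (-0.18 and -0.15) and chromosome 9 (-0.22 and -0.18). The epidermal differentiation complex and the kallikreins lie on chromosomes 3 and 7.

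**Figure D5:**
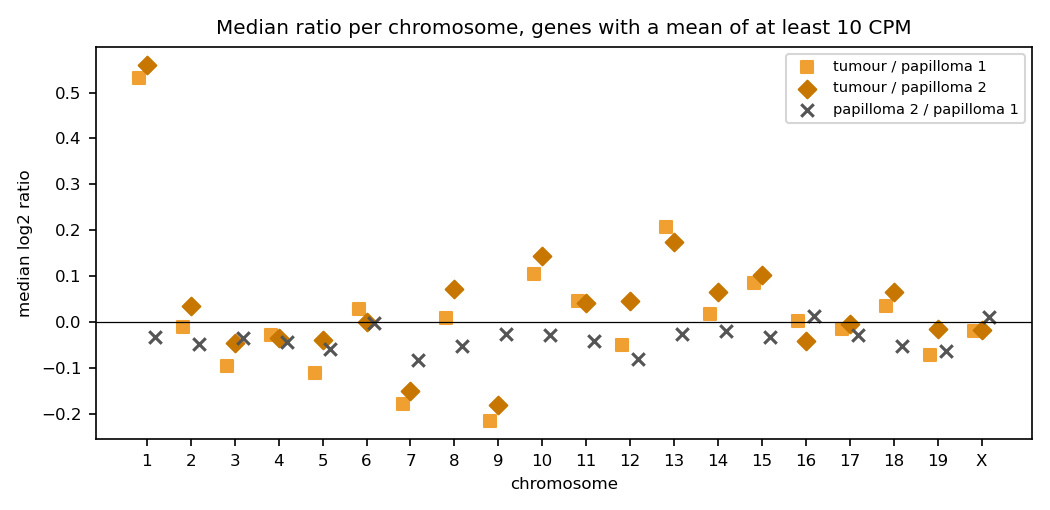
Median log2 ratio per chromosome over genes that average 10 CPM or more, for the tumour against papilloma 1 (squares), the tumour against papilloma 2 (diamonds) and papilloma 2 against papilloma 1 (crosses). Chromosome 1 lies at 0.53 and 0.56, above all other chromosomes, while its cross lies at -0.03.

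The cultured cells give levels beside these calls. Whether the cultures were free of stromal cells was not tested. At least 1 CPM in a culture was reached by 74.9% of the tested genes, 81.7% of those called higher and 65.8% of those called lower. Of the genes at least 4-fold above both papillomas, 73 of 225 were under 1 CPM in both cultures, as were 185 of 385 of those at least 4-fold below. Krt19 was at 71.3 CPM in mSCC-20 and 2.41 in mSCC-38 and Mgat3 at 0.360 and 15.4 CPM. Ltf stood at 1.18 and 0.332 CPM, and Muc4 had 0 counts in both cultures. Krt10 was at 10.2 and 10.1 CPM, below the tumour. For scale, 19 hair genes abundant in skin had a median of 0.0676% of their skin level in mSCC-20 and 0.0442% in mSCC-38. The same median was 0.0562% in papilloma 1 and 0.0660% in the tumour. Whether low levels of genes abundant in another library are background reads was not tested.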

How the data were processed

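Per the labels' protocols, libraries of Qiazol-extracted RNA were prepared for SOLiD sequencing by a small RNA kit. The authors deposited raw counts per gene model for mouse build mm9 (per the submitters' processing notes), with RPKM values beside them. The deposited RPKM values were used only to check the counts: their totals were 99.2% to 99.6% of the summed counts. How reads were aligned, counted and assigned to strands is not stated in the labels, so overlapping or near-identical genes may share reads. Of 23726 models, 4364 had no count.

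The 4 biopsies were fitted together with edgeR 4.0.16 (limma 3.58.1, R 4.3.3; TMM, filterByExpr by group, quasi-likelihood test, adjusted p under 0.05). The common dispersion was 0.0773, with 1 residual and 4.81 total degrees of freedom, and 6297 genes had an unadjusted p under 0.05. SEs are the absolute log2 fold change divided by the root of edgeR's F. Counts were simulated for the tumour against the papillomas (16009 genes). The test found 58 of 100 genes set to a 4-fold difference and 99 of 100 set to 16-fold, with 2 false calls among 159. A gene that did not pass may thus still differ. The simulated tumour had the dispersion trend of the fit, and only 200 genes were changed, far fewer than were called in the data. These rates therefore need not hold for the real tumour library.

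Named genes were the 12 called genes per direction with the largest log2 ratio (0.5 CPM added) to the nearer papilloma and at least 10 CPM in the higher group, up to 4 called genes per direction in each of 41 lists, and each list's most abundant gene. Some genes chosen by this rule are not reported here. Other genes named, mostly members that did not pass, were chosen after their values were seen. Lists held 658 entries, of which 646 were in the table, and were described by counts and medians without a set test. The members and lists were chosen with earlier results of these data known. Alternatives were DESeq2 1.42.0 and its size factors, total-count scaling, no filter, other pseudocounts and minima, leaving out skin or a papilloma, and a gene length offset added after seeing the data. Intervals of count ratios are exact (Clopper-Pearson, 95%) and, like the floor of 3 counts, cover counting error only.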

Additional observations from a re-analysis of the deposited data

How the results depend on the processing

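At an adjusted p under 0.01 edgeR called 501 genes higher and 573 lower in the tumour, against 1954 and 1733 at 0.05. Under DESeq2's size factors, total-count scaling, no filter, DESeq2's Wald test, a fit without skin and the gene length offset the higher calls ranged from 1596 to 2225 and the lower calls from 1171 to 2067. Without papilloma 1 or papilloma 2 the genes at least 4-fold above numbered 296 and 282 (225 against both), and those at least 4-fold below 551 and 476 (385 against both). These counts could not fall below those against both, because the rule takes the nearer papilloma. Among 228 named or listed called genes, none changed direction under the alternative fits, and between 0 (no filter) and 39 (DESeq2's size factors) lost their call. Leaving out a papilloma could not reverse a call, because a call requires the tumour to lie outside both. The edgeR calls could not be repeated without a papilloma, because no residual degree of freedom would remain. No paired analysis was possible because only the papillomas carry numbers in the labels. Depth limits the ratios of genes with few papilloma counts, such as Muc4 and Prf1.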

Other observations

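Gene families that share a symbol stem were searched after their values were seen, for stems with at least 6 tested genes, and some not described above stood mostly on 1 side. Skint genes, which select epidermal T cells, were called lower in 6 of 8 cases, although all were under 5 CPM, Skint10 standing at 4.50, 3.92 and 0.236 CPM in papilloma 1, papilloma 2 and the tumour. Beta-defensin genes were called lower in 4 of 6 cases, with Defb6 at 94.98, 199 and 3.36 CPM and Defb14, which did not pass, at 431, 220.1 and 108 CPM. Retinol dehydrogenase genes were lower in 7 and higher in 1 of 10 cases. Rdh10, the main enzyme that starts retinoic acid synthesis, was the higher one, at 29.2, 26.5 and 241 CPM, while Rdh12 was at 111, 94.4 and 12.1 CPM.

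Clade B serpin genes, which encode inhibitors of proteases, stood on both sides. Serpinb12 was at 589.7, 357 and 17.6 CPM and Serpinb9, an inhibitor of granzyme B, at 9.56, 7.66 and 173 CPM. Klra genes, NK cell receptors of which several are near copies and 2 pairs carry almost the same counts, were higher in 9 of 12 models and so stand for fewer signals. Klra4 was at 19.8, 13.2 and 77.6 CPM, and at 52.8 and 42.1 CPM in the mSCC-20 and mSCC-38 cultures. Tmc genes, of transmembrane channel-like proteins, were higher in 5 of 7 cases, with Tmc4 at 7.59, 8.23 and 50.5 CPM. Spp1, encoding the secreted protein osteopontin, was at 16.8, 22.3 and 174 CPM, and the keratinocyte cytokine gene Il1f5 at 258, 305 and 4.49 CPM, both called and both picked after their values were seen.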
